A study of Mus musculus with 12 samples.

Results

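Basophils and mast cells are marked by a small set of genes, and 7 of them were read here in RNA-Seq libraries of stimulated mouse T cells: Prss34, Fcer1a, Ms4a2, Hdc, Gata2, Mcpt8 and Cpa3. The genes were selected on counts: a gene was kept if the deposited entries that overlay its exons alone held 10 or more counts over all 12 libraries. Of the 7 genes, 5 were kept, out of 5906 genes with as many counts. The smallest total kept was that of Ms4a2, with 809 counts, and Mcpt8 and Cpa3 were outside because no entry lay over their exons. The 5 genes also held 42 to 522 counts each without the group in which they were highest. The set was chosen with results of these libraries known, so the p-values below describe the libraries and are not independent support for the choice.

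The T cells came from mouse spleen. WT cells were compared with PERK-cKO cells, from B6 mice that carry PERK fl/fl alleles and CD4-Cre, a Cre driven by CD4 regulatory sequence, so that the sensor kinase PERK (encoded by Eif2ak3) is deleted in T cells and not in other cells. T cells of each genotype were cultured either with APCs (antigen-presenting cells) of an allogeneic donor or with antibodies to CD3 and CD28, which stimulate T cells polyclonally. The 4 groups had 3 libraries each. The labels give 4 days for the allogeneic and 3 days for the polyclonal cultures, so stimulation and day cannot be told apart. The study's legend for these libraries can be read as 4 days for both kinds of culture. For other assays its supplement gives 4 days with allogeneic APCs and 3 days with antibodies to CD3 and CD28, as the labels do. The difference was not resolved here. An allogeneic culture also holds the APCs. In the study's other cultures these were splenocytes depleted of T cells, a mixture of B cells, myeloid cells and others, and for these libraries their strain is not given in the sources used here. Nothing states that the 3 libraries of a group came from separate animals or cultures, so p-values measure the spread between these libraries, which may be technical.

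Basophils and mast cells carry FcεRI, the high-affinity receptor for IgE. Its α chain binds IgE, and its β chain and the shared γ chain pass the signal on when antigen crosslinks the bound antibody. The cells then release histamine, proteases and lipid mediators and make type 2 cytokines. The transcription factor GATA2 is needed to form both cell types, and IL-3, which activated T cells secrete, expands basophils in culture.

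The counts of a gene were those of entries that overlay short stretches of its exons, so each entry as a whole was what was measured. The positions printed in the deposited table are those of GENCODE M27, which was made for GRCm39, whereas the labels name mm10 (GRCm38). They were laid, as printed, on GRCm38 gene models (GENCODE M21), and the value of each gene named here holds only if the reads were aligned to mm10, as the labels say. Prss34 (chr17:25298394-25300165, + strand) was read from 1 entry that overlay 729 bases of its exons, 564 of them coding. Fcer1a (chr1:173221284-173227214, - strand) was read from 71 coding bases of 1 entry 3501 bases long, whose other 3430 bases lay outside annotated genes. Hdc (chr2:126593667-126619299, - strand) was read from 1231 exon bases, 288 of them coding, of an entry that also crossed the spans of Gm26697 and Slc27a2. A further entry over exons of both Hdc and Slc27a2, with 37 counts, was left out. Ms4a2 (chr19:11615523-11623719, - strand) was read from 266 exon bases outside its coding sequence. Gata2 (chr6:88193891-88207032, + strand) was read from 2 entries, which overlay 294 and 301 bases of its exons. The table lists these entries under other symbols (Tmem204, Aim2, Usp8, Ms4a3, Dnajb8 and 1700031F10Rik). The entry listed as Hdc held 555 counts and overlay Atp8b4, and the entries listed as Prss34, Fcer1a, Mcpt8 and Cpa3 held 0. Reads on an entry outside the exons of its gene were counted with the others, and strand was not used.

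Coding stretches under entries of Prss34, Fcer1a, Hdc and Gata2 are shown as examples of the sequence that the entries overlay. The values of each gene come from its whole entries, of which the stretch is a part. The Gata2 stretch is printed as it lies under the entry listed as Dnajb8, which held 235 of the gene's 1058 counts. In Prss34, capitals mark the codons of Asp-Ser-Gly-Gly, the motif that holds the catalytic serine of trypsin-like proteases, and in Gata2 they mark the start codon. The stretches are chr17:25299739-25299999 (+), chr1:173221529-173221599 (-), chr2:126597893-126597969 (-) and chr6:88199561-88199789 (+) of GRCm38, in coding orientation.
Prss34: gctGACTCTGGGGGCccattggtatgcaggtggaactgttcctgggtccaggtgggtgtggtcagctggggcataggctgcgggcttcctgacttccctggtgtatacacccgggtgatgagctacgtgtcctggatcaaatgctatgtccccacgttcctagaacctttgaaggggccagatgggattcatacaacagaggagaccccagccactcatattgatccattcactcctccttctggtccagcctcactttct
Fcer1a: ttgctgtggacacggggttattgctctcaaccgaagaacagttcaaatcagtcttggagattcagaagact
Hdc: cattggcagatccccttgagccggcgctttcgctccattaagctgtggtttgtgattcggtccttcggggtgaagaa
Gata2: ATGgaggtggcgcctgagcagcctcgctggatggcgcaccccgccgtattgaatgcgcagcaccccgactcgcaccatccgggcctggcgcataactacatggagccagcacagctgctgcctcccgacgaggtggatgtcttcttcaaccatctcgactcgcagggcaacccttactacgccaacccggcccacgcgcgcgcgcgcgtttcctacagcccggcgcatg
The Fcer1a stretch covers bases 644 to 714 of a coding sequence of 750 bases, and the Gata2 stretch covers bases 1 to 229 of 1440. The Prss34 stretch is the last 261 of 954 coding bases.

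GATA factors bind WGATAA, written out here as AGATAA or TGATAA, and the promoters are shown because the 5 genes were highest in the same libraries. All 7 genes were in the RefSeq promoter table (GRCm38.p6), which gives 250 bases before and 50 after each start. AGATAA, searched on both strands, was found in 4 of the 7 promoters (Prss34, Fcer1a, Ms4a2 and Cpa3) and in 11.2% of all 32851 promoters. TGATAA was in 0 of the 7 and in 9.05% of all promoters. AGATAA or TGATAA was thus in 4 of the 7 and in 18.6% of all promoters. The motif TTCNNNGAA, which STAT factors bind, was in 0 of the 7 (8.30% of all), and the RUNX motif TGTGGT was in 3 of the 7 (16.8% of all). In the 250 bases before the start, capitals mark AGATAA or its reverse complement TTATCT. The windows are chr17:25298144-25298393 (+), chr1:173227230-173227479 (-) and chr19:11623720-11623969 (-).
Prss34: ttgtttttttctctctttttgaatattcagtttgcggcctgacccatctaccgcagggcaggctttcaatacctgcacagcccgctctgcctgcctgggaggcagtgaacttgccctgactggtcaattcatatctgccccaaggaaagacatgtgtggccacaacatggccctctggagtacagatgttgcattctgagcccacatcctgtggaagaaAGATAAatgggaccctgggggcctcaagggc
Fcer1a: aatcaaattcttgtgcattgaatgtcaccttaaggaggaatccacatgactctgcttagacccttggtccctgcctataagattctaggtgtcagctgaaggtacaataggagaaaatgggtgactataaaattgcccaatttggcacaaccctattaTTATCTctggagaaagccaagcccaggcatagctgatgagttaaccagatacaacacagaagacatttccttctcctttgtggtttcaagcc
Ms4a2: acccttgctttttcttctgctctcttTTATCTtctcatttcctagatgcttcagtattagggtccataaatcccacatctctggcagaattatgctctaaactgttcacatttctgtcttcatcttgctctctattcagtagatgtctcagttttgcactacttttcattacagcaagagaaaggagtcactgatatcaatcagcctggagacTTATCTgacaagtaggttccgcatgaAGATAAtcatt
Counted from the start, the motif began at -31 in Prss34, at -92 in Fcer1a and at -224, -37 and -11 in Ms4a2. A match describes the letters of the window, and no binding was measured.

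Between 1568431 and 2327503 counts per library were placed on genes, 50.4% of all counts, and levels below are CPM scaled to the placed total of each library. At this depth 0 counts in a library allows a level of up to 1.29 to 1.91 CPM (3 counts), and such limits cover counting error only. The T cell label was checked on 16 markers, of which 6 had placed counts. Their summed level was 4143 to 6885 CPM in every library, led by Thy1, Lck and Lat, whereas Cd3d, Cd3e, Cd3g, Cd4, Cd8a and the T cell receptor constant genes had no placed counts and could not be checked. The targeted gene, Eif2ak3, had 121 to 155 placed counts in PERK-cKO and 167 to 173 in WT allogeneic libraries, and 76 to 116 and 85 to 152 in the polyclonal ones. These counts cover 563 bases of its exons, and whether they include the deleted part was not tested. Summed over 4 genes of the Y chromosome, counts were 3335 to 4716 in the libraries of WT allogeneic cultures, whereas the other 9 libraries had 0. In the comparisons that use the WT allogeneic libraries, genotype or stimulation therefore cannot be told apart from male cells in that group.

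Prss34, which encodes a granule serine protease of basophils (mMCP-11), gave the most counts. It had 5251, 4154 and 3341 placed counts in the PERK-cKO allogeneic libraries, 161, 154 and 170 in the WT allogeneic, 9, 13 and 12 in the PERK-cKO polyclonal and 0, 2 and 1 in the WT polyclonal libraries. As levels these were 2117 ± 161, 91.3 ± 9.93, 6.19 ± 2.12 and 0.533 ± 0.541 CPM (mean ± SD, n = 3 each). The 4 groups did not overlap, and every WT polyclonal library was at or under the level that 3 counts allow.

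Fcer1a encodes the IgE-binding α chain of FcεRI, and Ms4a2 its β chain. Fcer1a had 633, 676 and 427 counts in the PERK-cKO allogeneic, 22, 21 and 35 in the WT allogeneic, 14, 12 and 12 in the PERK-cKO polyclonal and 2, 1 and 0 in the WT polyclonal libraries. Its levels were 289 ± 36.5, 14.4 ± 2.81, 6.70 ± 0.697 and 0.504 ± 0.486 CPM (n = 3 each). Both genes ranked the groups alike, with no overlap between any pair of groups. Ms4a2 had 278, 278 and 211 counts in the PERK-cKO allogeneic, 9, 8 and 10 in the WT allogeneic, 5, 5 and 4 in the PERK-cKO polyclonal and 1, 0 and 0 in the WT polyclonal libraries. That is 128 ± 6.77, 5.07 ± 0.625, 2.49 ± 0.522 and 0.162 ± 0.280 CPM (n = 3 each). The γ chain gene of the receptor, Fcer1g, had no placed counts, so the receptor was read in 2 of its 3 chains.

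Hdc encodes histidine decarboxylase, the enzyme that makes histamine. It had 850, 579 and 514 counts in the PERK-cKO allogeneic, 31, 28 and 30 in the WT allogeneic, 31, 19 and 28 in the PERK-cKO polyclonal and 3, 4 and 12 in the WT polyclonal libraries. The levels were 322 ± 46.3, 16.8 ± 2.60, 13.5 ± 1.92 and 3.28 ± 2.58 CPM (n = 3 each). Hdc was the only one of the 5 genes for which the WT allogeneic and PERK-cKO polyclonal libraries overlapped. WT polyclonal replicate 3, with 12 counts, stood above the other 2 libraries of its group.

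Gata2, the transcription factor of the lineage, had 382, 254 and 316 counts in the PERK-cKO allogeneic, 20, 22 and 30 in the WT allogeneic, 9, 10 and 11 in the PERK-cKO polyclonal and 1, 2 and 1 in the WT polyclonal libraries. The levels were 161 ± 34.4, 13.3 ± 1.36, 5.38 ± 1.31 and 0.695 ± 0.335 CPM (n = 3 each), and no pair of groups overlapped. The 2 entries of Gata2 ranked the allogeneic groups alike. The entry over the larger exon length gave 123 ± 22.1 CPM in the PERK-cKO and 11.5 ± 2.70 CPM in the WT allogeneic libraries, and the other gave 37.5 ± 13.2 and 1.81 ± 1.99 CPM (n = 3 each). After polyclonal stimulation they differed. The first entry had 8 to 10 counts in the PERK-cKO libraries and 0 in every WT library, whereas the second had 0 to 2 and 1 to 2 counts, so that the polyclonal difference of Gata2 rested on 1 entry. The levels of Mcpt8, a basophil protease, and of Cpa3, the mast cell carboxypeptidase, were not measured.

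**Figure D1:**
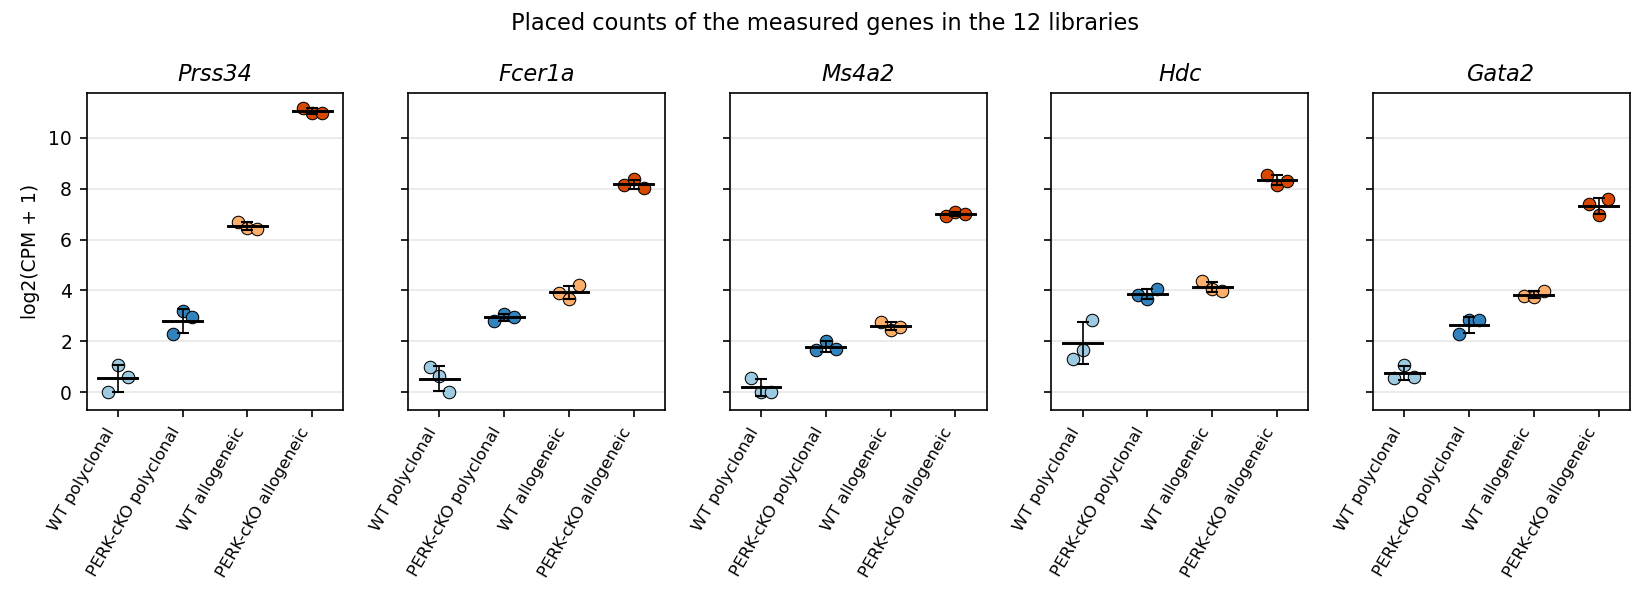
Levels of the 5 measured genes in the 12 libraries, as log2(CPM + 1) on the y axis, with the 4 groups on the x axis. Points are libraries, lines the mean of 3 libraries and bars ± SD. For each gene the 3 PERK-cKO allogeneic libraries lie highest and the 3 WT polyclonal libraries lowest, and the middle groups overlap for Hdc alone.

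The first comparison asked how PERK deficiency changed these genes under allogeneic stimulation. All 5 genes were higher in PERK-cKO than in WT libraries, and the libraries of the 2 genotypes did not overlap for 5 of 5. Of the 5906 placed genes with 10 or more counts, 22% had every PERK-cKO above every WT allogeneic library. In edgeR's quasi-likelihood fit, with p-values adjusted by Benjamini-Hochberg over the 4093 genes tested, 5 of 5 were called at an adjusted p under 0.05, against 18.5% of all genes called higher. Ms4a2, with 8 to 10 counts in WT, had passed the filter through the PERK-cKO libraries. In libraries of bulk RNA, more cells of a type and more RNA per cell cannot be told apart. Ms4a2 was 4.62 higher on the log2 scale (SE 0.21, edgeR adjusted p = 1.55e-14). Prss34 was 4.51 higher (SE 0.11, edgeR adjusted p = 1.69e-19). The receptor α chain and the histamine enzyme moved by about as much, with log2 fold changes of 4.27 for Fcer1a (SE 0.17, edgeR adjusted p = 1.13e-15) and 4.23 for Hdc (SE 0.15, edgeR adjusted p = 1.65e-16). Gata2 had the smallest of the 5 values, 3.53 (SE 0.19, edgeR adjusted p = 5.14e-13). The median of the 5 genes was 4.27, beside -0.02 over all genes tested. Leaving out any 1 of the 6 libraries gave values between 3.40 and 4.67.

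After polyclonal stimulation the same direction was read from far fewer counts. Every PERK-cKO library was above every WT library for 5 of 5 genes, as for 17.2% of the 5906 placed genes with 10 or more counts, and edgeR's default filter kept only Fcer1a and Hdc. Both were called higher, where 16% of the 3937 genes tested were, but both had passed the filter through the PERK-cKO libraries in which they are high, so the count of 2 of 2 is not support. Fcer1a was 3.48 higher on the log2 scale (SE 0.63, edgeR adjusted p = 0.000612) and Hdc 1.98 higher (SE 0.44, edgeR adjusted p = 0.00275). Without WT polyclonal replicate 1 the value of Fcer1a was 4.32, and without WT polyclonal replicate 3 that of Hdc was 2.82, whereas the lowest values with a library left out were 2.95 and 1.63. The other 3 genes were left out by the filter. Without a filter, Prss34 (3.36, SE 0.83, edgeR adjusted p = 0.000465) and Gata2 (2.80, SE 0.82, edgeR adjusted p = 0.00455) passed and Ms4a2 did not (3.38, SE 1.33, edgeR adjusted p = 0.0525), where 10.3% of 6798 genes were called higher. The WT polyclonal group held 3 counts of Prss34, 3 of Fcer1a and 1 of Ms4a2 in all, so fitted fold changes against it depend on the model. From summed counts, PERK-cKO was 11.5-fold higher for Prss34 (95% exact interval 3.62 to 58.6), 12.9-fold for Fcer1a (4.08 to 65.2), 14.2-fold for Ms4a2 (2.16 to 601), 7.62-fold for Gata2 (2.68 to 29.8) and 4.17-fold for Hdc (2.50 to 7.29). These intervals cover counting error only.

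The next comparisons asked how the 2 stimulations differed within a genotype, and they share their libraries with those above. The allogeneic libraries lay above the polyclonal ones for 5 of 5 genes in each genotype, as for 20.2% of the 5906 genes in WT and 25.2% in PERK-cKO cells. In WT cells, 4 genes were tested and called higher after allogeneic stimulation, where 24.5% of 3985 genes were. All 4 had passed the filter through the allogeneic libraries in which they are high, so their count is not support. Prss34 was 7.30 higher on the log2 scale (SE 0.33, edgeR adjusted p = 1.68e-09), Fcer1a 4.66 (SE 0.58, edgeR adjusted p = 2.21e-05), Gata2 4.18 (SE 0.49, edgeR adjusted p = 1.33e-05) and Hdc 2.34 (SE 0.44, edgeR adjusted p = 0.000648). With a library left out, the values ran from 6.78 to 8.11 for Prss34 (8.11 without WT polyclonal replicate 2), from 4.13 to 5.51 for Fcer1a (5.51 without replicate 1 of that group) and from 2.03 to 3.18 for Hdc (3.18 without its replicate 3). As counts, Prss34 was 176-fold higher (95% exact interval 59.9 to 857), with 3 counts in the WT polyclonal group. Ms4a2 was not tested there, and its summed counts gave a ratio of 29.4 (95% exact interval 4.85 to 1204). In PERK-cKO cells, all 5 measured genes were called higher after allogeneic stimulation, where 27.7% of 4159 genes were. Of these, only Fcer1a and Hdc had 10 or more counts in each of the 6 libraries, and the other 3 had passed the filter through the allogeneic libraries. The values were 8.51 for Prss34 (SE 0.15, edgeR adjusted p = 1.49e-17), 5.73 for Ms4a2 (SE 0.23, edgeR adjusted p = 4.85e-13), 5.48 for Fcer1a (SE 0.18, edgeR adjusted p = 4.25e-14), 4.96 for Gata2 (SE 0.23, edgeR adjusted p = 2.99e-12) and 4.61 for Hdc (SE 0.15, edgeR adjusted p = 4.70e-14). Prss34 had the largest and Hdc the smallest fitted value in each genotype.

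Whether the genotype difference itself depended on the stimulation was tested as the interaction over all 12 libraries. It was called for 1 of the 5 genes, against 16.7% of 4402 genes called in the same direction. For Hdc the PERK-cKO to WT difference was 2.23 larger on the log2 scale under allogeneic stimulation (SE 0.48, edgeR adjusted p = 0.000835). Without WT polyclonal replicate 3, the library with 12 counts, this value was 1.39 (edgeR adjusted p = 0.103). The interaction was 1.17 for Prss34 (SE 0.91, edgeR adjusted p = 0.429), 1.25 for Ms4a2 (SE 2.13, edgeR adjusted p = 0.739), 0.78 for Fcer1a (SE 1.12, edgeR adjusted p = 0.645) and 0.75 for Gata2 (SE 0.93, edgeR adjusted p = 0.592). The 95% intervals of these 4 values included 0, so a difference between the stimulations was not detectable for these genes at this depth. Without WT polyclonal replicate 1, the sign turned for Fcer1a (-0.08) and Ms4a2 (-0.61).

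**Figure D2:**
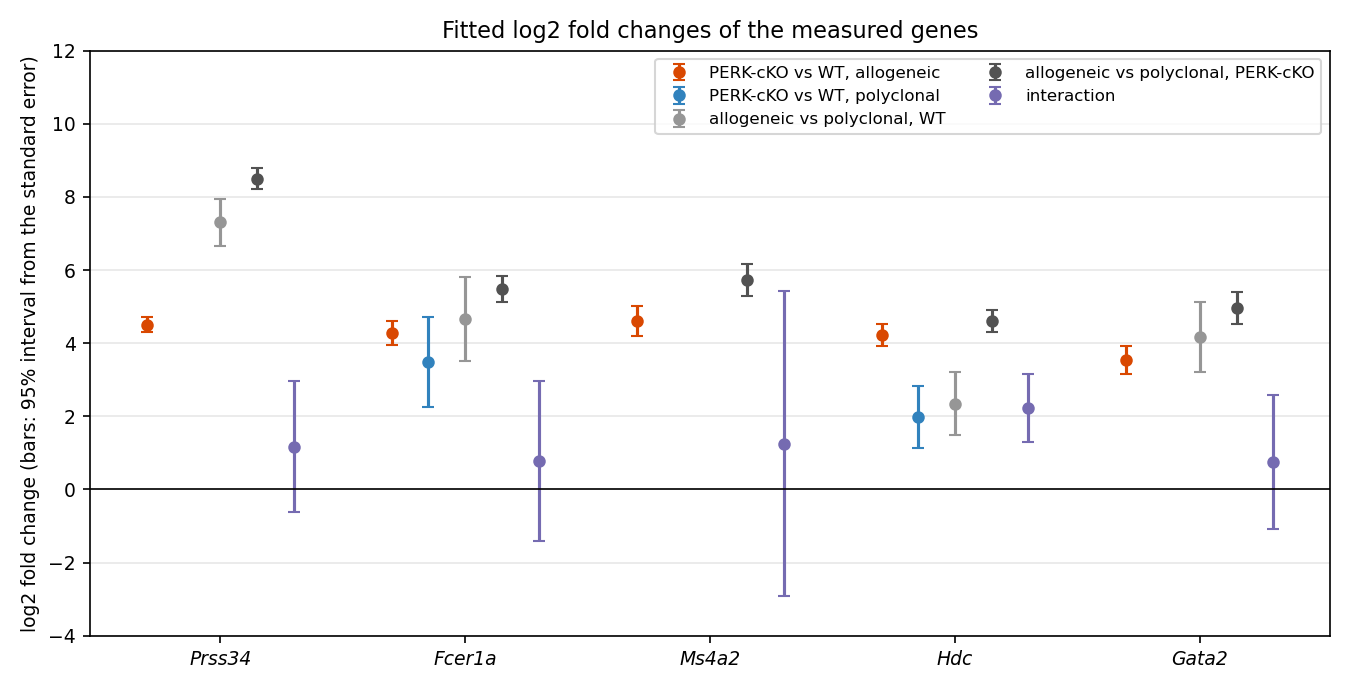
Fitted log2 fold changes of the 5 genes (y axis) in the 4 comparisons and the interaction, with bars for 95% intervals from the standard error. A missing point is a gene that the filter left out of that comparison. The allogeneic PERK-cKO to WT values lie between 3.53 and 4.62, and only the interaction of Hdc (2.23) has an interval above 0.

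The mixture of the 5 genes was read as the share of each gene in their sum. The summed count was 4809 to 7394 in the PERK-cKO allogeneic libraries, 233 to 275 in the WT allogeneic, 59 to 68 in the PERK-cKO polyclonal and 7 to 14 in the WT polyclonal libraries. Prss34 made up 70.2% of it in the PERK-cKO allogeneic group (95% exact interval 69.6% to 70.9%) and 64.6% in the WT allogeneic group (61.0% to 68.0%). After polyclonal stimulation its share was 17.5% in PERK-cKO (12.5% to 23.6%) and 10.0% in WT libraries (2.11% to 26.5%). Single libraries ranged from 61.8% to 71.0% after allogeneic and from 0% to 22.2% after polyclonal stimulation, so the stimulations did not overlap. Hdc took the larger share in the polyclonal libraries, with 40.2% in PERK-cKO (33.2% to 47.5%) and 63.3% in WT (43.9% to 80.1%), beside 10.7% and 11.9% in the allogeneic groups. Gata2 was 5.25% of the sum in the PERK-cKO allogeneic (4.93% to 5.58%) and 9.59% in the WT allogeneic group (7.58% to 11.9%). These shares were not tested between groups, and the intervals cover counting error of the pooled libraries only.

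**Figure D3:**
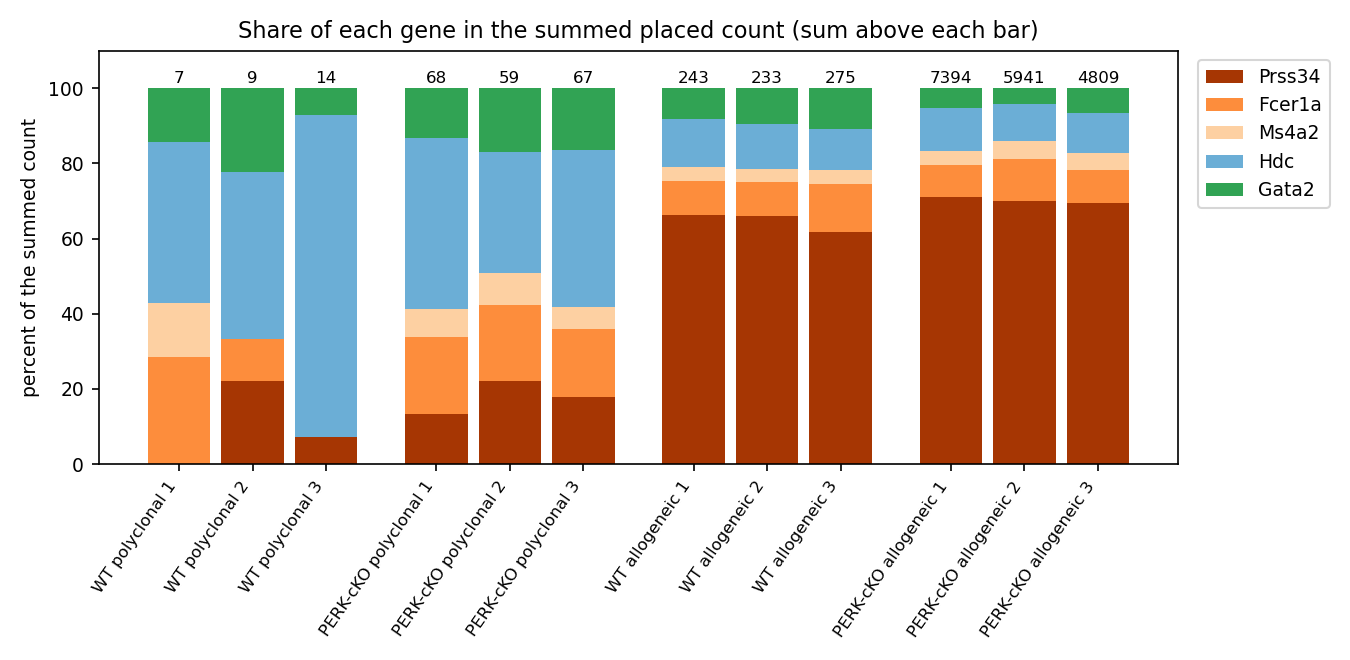
Percent of the summed placed count of the 5 genes that each gene took (y axis, stacked to 100%) in each of the 12 libraries (x axis), with the summed count printed above each bar. Prss34 takes 61.8% to 71.0% in the allogeneic libraries, and Hdc takes 32.2% to 85.7% in the polyclonal libraries, which rest on 7 to 68 counts.

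Levels were compared between genes only per kilobase of the exon sequence covered. On that scale, Fcer1a had the highest mean of the 5 genes in each of the 4 groups, 4065 ± 514 CPM per kb in the PERK-cKO allogeneic, 203 ± 39.5 in the WT allogeneic, 94.3 ± 9.82 in the PERK-cKO polyclonal and 7.09 ± 6.85 in the WT polyclonal libraries (n = 3 each). In the WT polyclonal group this mean rests on 3 counts, and in its replicate 3 Fcer1a was at 0 and Hdc at 5.06 CPM per kb. The covered length of Fcer1a was 71 bases, so reads from the rest of its long entry would raise this value. Prss34 came next in the allogeneic groups, with 2905 ± 221 and 125 ± 13.6 CPM per kb in PERK-cKO and WT. In PERK-cKO allogeneic libraries Ms4a2 (483 ± 25.5) and Gata2 (414 ± 88.4) overlapped and Hdc was lowest (262 ± 37.6 CPM per kb). After polyclonal stimulation of PERK-cKO cells, Gata2, Hdc, Ms4a2 and Prss34 lay close together, at 8.49 to 13.8 CPM per kb.

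Other genes of these cells were read from 7 lists, and many of their members had no placed counts. Of the cytokines and chemokines that basophils release, 0 of 7 (Il4 among them) could be read, and Il3, Kit and Gata1 had no placed counts either. Among 13 genes for growth factors and their receptors, 2 were called higher and 1 lower in PERK-cKO allogeneic libraries, of 3 tested, where 18.5% of all genes tested were called higher and 14.5% lower. A gene with few counts in the lower group passed the filter through the higher group alone and had to differ, so calls with such counts given below, and the list counts that hold them, are descriptions and no support. The 2 called higher were Csf2rb and Csf2rb2, which encode signaling β chains of the IL-3 receptor. Csf2rb was 1187 ± 97.9 CPM in the PERK-cKO and 63.1 ± 7.55 in the WT allogeneic libraries, and 25.3 ± 9.36 and 3.82 ± 2.34 in the polyclonal ones (n = 3 each). It was 4.20 higher on the log2 scale in PERK-cKO under allogeneic stimulation (SE 0.11, edgeR adjusted p = 5.88e-19) and 2.69 higher under polyclonal stimulation (SE 0.40, edgeR adjusted p = 0.000132). Csf2rb2 was 4.37 higher (SE 0.11, edgeR adjusted p = 5.88e-19) and 3.60 higher (SE 0.33, edgeR adjusted p = 1.36e-06). Both passed the filter in the polyclonal comparison through the PERK-cKO group, with 24 to 66 counts for Csf2rb and 58 to 87 for Csf2rb2 beside 4 to 12 and 3 to 8 in WT. Csf2rb and Csf2rb2 are near-identical copies, so their split of reads is uncertain. Il18r1, the IL-18 receptor chain that activated T cells also express, was lower under allogeneic stimulation (-1.40, SE 0.42, edgeR adjusted p = 0.0130), with 4 to 20 counts in PERK-cKO and 19 to 35 in WT libraries.

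Of 13 other granule genes, 2 were tested under allogeneic stimulation and both were called higher in PERK-cKO, where 18.5% of all genes were. Ctsg, the granule protease cathepsin G, had 1675, 1706 and 1205 counts in the PERK-cKO allogeneic libraries, 75, 67 and 69 in the WT allogeneic, 13, 6 and 8 in the PERK-cKO polyclonal and 0 in the WT polyclonal libraries. It was 4.24 higher on the log2 scale in PERK-cKO allogeneic libraries (SE 0.12, edgeR adjusted p = 3.99e-18). Against the floor of 3 counts over the WT polyclonal group, Ctsg was at least 9.14-fold higher in the PERK-cKO polyclonal and at least 76.6-fold higher in the WT allogeneic group. Srgn, the proteoglycan core of granules in many leukocytes, was 0.94 higher under allogeneic (SE 0.11, edgeR adjusted p = 2.92e-07) and lower under polyclonal stimulation (-0.52, SE 0.16, edgeR adjusted p = 0.0171). Mcpt4, a protease of connective tissue mast cells, had 5 to 14 counts in the PERK-cKO allogeneic libraries and 0 to 4 in the others, and Tpsab1, a mast cell tryptase, was at 0 in all 12.

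Among 12 genes for histamine and lipid mediators, 2 were tested and both were higher in PERK-cKO allogeneic libraries, where 18.5% of all genes were called higher. Tph1, which makes serotonin, was 132 ± 8.24 CPM in PERK-cKO and 17.2 ± 9.38 in WT allogeneic libraries (n = 3 each), a log2 fold change of 2.94 (SE 0.21, edgeR adjusted p = 6.28e-11), and it was also higher after polyclonal stimulation (2.42, SE 0.58, edgeR adjusted p = 0.00499). In that comparison Tph1 passed the filter through PERK-cKO, whose libraries had 24 to 32 counts, beside 0 to 12 in WT, with 12 of the 15 WT counts in 1 library. Slc18a2, the vesicular amine transporter, was 1.34 higher (SE 0.18, edgeR adjusted p = 2.61e-06). Of 8 other surface and enzyme genes, 3 were tested and all 3 were higher in PERK-cKO allogeneic libraries, beside the same 18.5%. They were Cd200r3, an activating basophil receptor (4.49, SE 0.26, edgeR adjusted p = 1.43e-12), Itga2b, the integrin chain CD41 of basophils, mast cells and platelets (3.64, SE 0.16, edgeR adjusted p = 1.11e-14), and Cyp11a1, a steroid-making enzyme (2.09, SE 0.13, edgeR adjusted p = 7.73e-12). Cd200r3 passed the filter through the PERK-cKO group, with 162 to 191 counts beside 6 to 8 in WT. Itga2b was also higher after polyclonal stimulation (2.49, SE 0.39, edgeR adjusted p = 0.000174), again through the PERK-cKO group (28 to 30 counts beside 3 to 6 in WT), whereas Cyp11a1 was lower there (-0.47, SE 0.13, edgeR adjusted p = 0.0112), a call lost with library size only (edgeR adjusted p = 0.0617).

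The genes downstream of the receptor are largely shared with T cells. Of 18 genes of IgE receptor signaling, 8 were tested, and under allogeneic stimulation 2 were higher in PERK-cKO and 2 lower, with a median of -0.11 beside -0.02 over all genes. These counts lie near the background of 18.5% of all genes called higher and 14.5% called lower. Gab2, an adaptor of mast cell signaling, was higher (1.63, SE 0.44, edgeR adjusted p = 0.00588) and passed the filter through the PERK-cKO group (17 to 29 counts beside 5 to 8 in WT). Also higher was the phosphatase gene Inpp5d (0.31, SE 0.09, edgeR adjusted p = 0.0126). Fyn (-0.51, SE 0.10, edgeR adjusted p = 0.000325) and Lat (-0.46, SE 0.09, edgeR adjusted p = 0.000348), a kinase and an adaptor of T cells too, were lower. After polyclonal stimulation 0 of the 8 were higher and 1 lower, the adaptor Grap2 (-0.61, SE 0.14, edgeR adjusted p = 0.00353), where 15.8% of all genes were called lower. Of 12 transcription factors of the lineage, 4 were tested. Irf8 was higher in PERK-cKO under allogeneic (0.34, SE 0.09, edgeR adjusted p = 0.00622) and polyclonal stimulation (0.40, SE 0.08, edgeR adjusted p = 0.00114), the latter a call lost when libraries were scaled to their T cell markers (0.06, edgeR adjusted p = 0.559). Stat5a (-0.44, SE 0.10, edgeR adjusted p = 0.00273) and Stat5b (-0.49, SE 0.08, edgeR adjusted p = 0.000333) were lower under polyclonal stimulation.

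Between the stimulations, the lists gave these counts. In WT cells, 6 of 8 tested IgE signaling genes were higher after allogeneic stimulation and 1 lower, as were 3 of 3 growth factor and receptor genes, 1 of 2 granule genes, 1 of 2 mediator genes and 1 of 2 surface genes, while 4 of 4 transcription factors were lower. In PERK-cKO cells, 4 of 8, 2 of 3, 2 of 2, 2 of 2 and 3 of 3 were higher in the same order, and 3 of 4 transcription factors were lower. Scaling libraries to their T cell markers moved the median of all genes by -0.56 in WT cells, and of the 6 IgE signaling genes called higher there Fyn, Lat, Grap2, Vav1 and Inpp5d then turned sign and Pik3cd was no longer called, whereas the members tested kept their calls. The background was 24.5% of all genes called higher and 24.1% called lower in WT, and 27.7% and 23.8% in PERK-cKO cells.

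The genes whose levels followed the 5 genes most closely over the 12 libraries were ranked by Pearson's r of log2(CPM + 1) with the summed level, among placed genes with 50 or more counts. The 10 highest were Ctsg (0.99), Csf2rb2 (0.99), Csf2rb (0.99), Arl11 (0.99), Mndal (0.98), Bcl2a1a (0.98), Def8 (0.98), Hsd17b11 (0.98), Ly6c2 (0.98) and Itga2b (0.98). The 12 libraries fall into 4 groups and share their depth and placement, so r describes the order of the groups. Bcl2a1a, an anti-apoptotic gene, was at 126 ± 9.52 CPM in PERK-cKO and 9.29 ± 0.563 in WT allogeneic libraries and 1.67 ± 0.805 and 0.360 ± 0.624 in the polyclonal ones (n = 3 each). Mndal was at 613 ± 15.4 and 311 ± 32.4 CPM after allogeneic and 160 ± 27.0 and 86.1 ± 8.23 after polyclonal stimulation (n = 3 each). Bcl2a1a, Mndal and Ly6c2 have close paralogs that can share reads.

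Markers of other cells moved with the 5 genes. The 2 placed of 12 macrophage and monocyte markers, Ctss and Lyz2, summed to 1612 to 1734 CPM in the PERK-cKO allogeneic and 223 to 251 in the WT allogeneic libraries, beside 94.6 to 135 in the polyclonal ones. Lyz2 had 1643 to 2106 counts in PERK-cKO allogeneic, 77 to 108 in WT allogeneic, 0 to 2 in PERK-cKO polyclonal and 0 in WT polyclonal libraries, a log2 fold change of 4.16 in the allogeneic comparison (SE 0.13, edgeR adjusted p = 6.30e-18). That value is close to those of Fcer1a and Hdc. The 3 placed of 8 eosinophil markers (Epx, Prg3 and Ear2) summed to 83.3 to 106 CPM in the PERK-cKO allogeneic and 0.994 to 6.38 in the WT allogeneic libraries, and Epx, the eosinophil peroxidase, was 5.01 higher (SE 0.31, edgeR adjusted p = 5.44e-12). Epx passed the filter through the PERK-cKO group, with 147 to 227 counts beside 2 to 9 in WT. The 1 placed of 10 neutrophil markers, Csf3r, was at 35 to 68 counts in PERK-cKO and 0 to 3 in WT allogeneic libraries (ratio 43.0, 95% exact interval 14.4 to 211), and it was at 0 in all 6 polyclonal libraries.

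The 3 placed of 8 dendritic cell markers (Itgax, Zbtb46 and Flt3) summed to 46.5 to 61.2 CPM in PERK-cKO and 1.69 to 7.45 in WT allogeneic libraries. The 2 placed of 10 B cell markers (Ms4a1 and Blk) summed to 192 to 227 and 86.1 to 111 CPM, and the 1 placed of 7 megakaryocyte and platelet markers was Itga2b, given above. The 3 placed of 5 stem and progenitor markers (Meis1, Hoxa9 and Mecom, the last at 0) summed to 11.5 to 16.6 and 1.13 to 3.19 CPM. The 2 placed of 6 NK cell markers (Klrk1 and Ncr1) summed to 2.43 to 8.77 and 0.497 to 1.69 CPM. Of the 4 placed of 8 stromal markers, Dcn and Pdgfra were at 0 in all 12 libraries, and the sum of 387 to 467 CPM in PERK-cKO and 363 to 432 in WT allogeneic libraries was nearly all Pecam1, an endothelial adhesion gene that leukocytes also express (0.06, SE 0.09, edgeR adjusted p = 0.690). Col1a2, a collagen gene of fibroblasts, had 9 to 22 and 1 to 5 counts and was higher in PERK-cKO allogeneic libraries (2.13, SE 0.53, edgeR adjusted p = 0.00315), having passed the filter through that group. The placed T cell markers summed to 5791 to 6573 and 6380 to 6885 CPM, and of the 5 tested 0 were called higher in PERK-cKO and 4 lower, where 14.5% of all genes were called lower. Of the 4, Zap70 lost its call when libraries were scaled to these markers (-0.21, edgeR adjusted p = 0.0878). In the polyclonal libraries, the macrophage, dendritic cell and B cell sums of the genotypes overlapped, the neutrophil marker was at 0 and the eosinophil sum was at most 0.617 CPM. The NK cell sum did not overlap, at 10.3 to 11.7 CPM in PERK-cKO and 0 to 2.16 in WT polyclonal libraries, and Klrk1, a receptor of NK and activated CD8+ T cells, was higher (3.03, SE 0.54, edgeR adjusted p = 0.000534), with 18 to 24 counts in PERK-cKO, through which it passed the filter, and 0 to 4 in WT. The T cell sum did not overlap either, at 5840 to 6070 and 4143 to 4964 CPM. The part of other cells in the differences of the 5 genes was not tested.

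**Figure D4:**
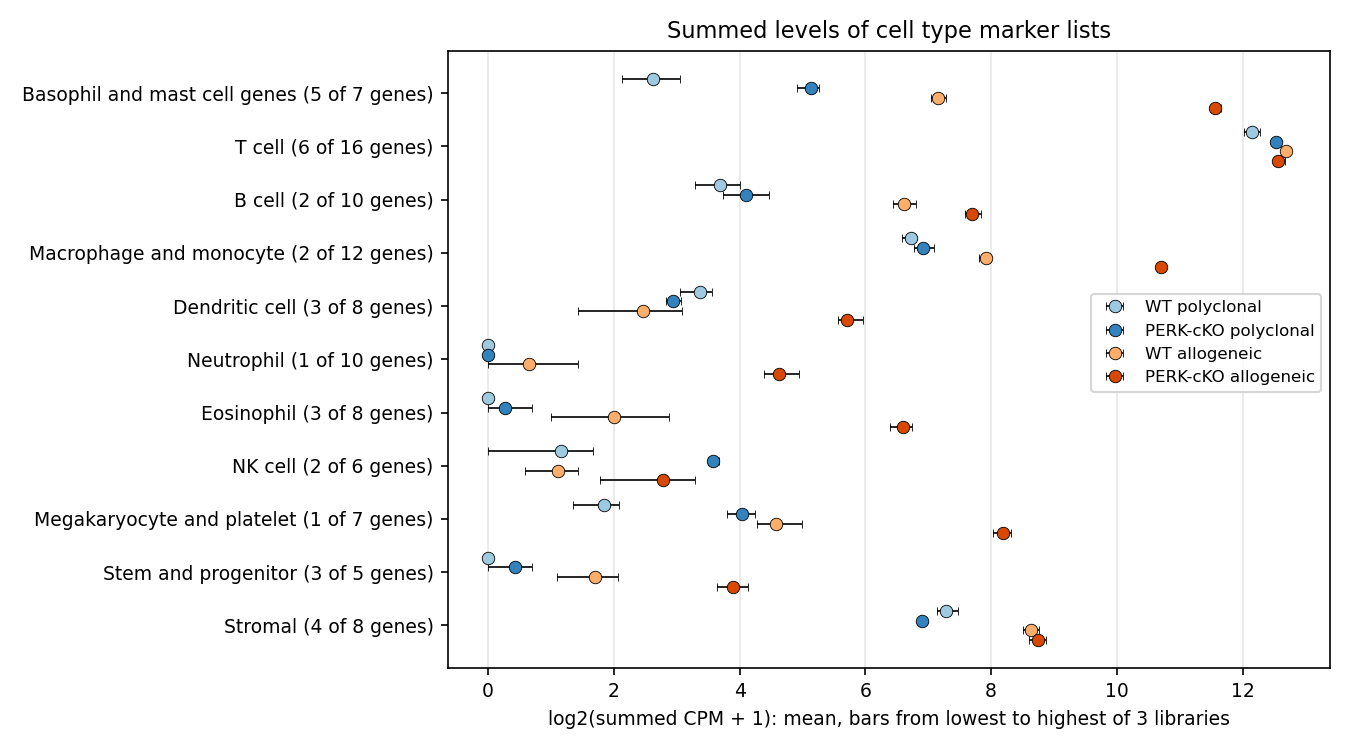
Summed levels of 11 marker lists as log2(summed CPM + 1) on the x axis, with the number of genes read of each list beside its name. Points are means of 3 libraries per group and bars run from the lowest to the highest library. In the PERK-cKO allogeneic group the basophil and mast cell list reaches 3018 CPM on average, beside 141 in WT, and the macrophage, dendritic cell, neutrophil and eosinophil lists are also highest there.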

How the data were processed

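Bulk RNA-Seq of T cells was analyzed in 12 libraries, grouped by their labels. The authors deposited raw counts, without normalization: featureCounts 2.0.1 had counted read pairs on exons by gene symbol with GENCODE M27 positions, without strand. M27 annotates GRCm39, whereas the labels name mm10, which is GRCm38. The aligner is not given in the sources used here. The positions of the 53762 entries were laid as printed on GRCm38 exons (GENCODE M21), which holds only if the reads were aligned to mm10. Entries over exons of exactly 1 gene by 50 bp or more, small RNAs aside, were summed per gene (13386 entries, 50.4% of counts, 10702 genes). Libraries of the same group were compared in pairs before averaging, and no pair agreed within sampling noise. WT polyclonal replicate 1 differed most from its group. Its chi-square per degree of freedom was 54.4 and 61.4 against replicates 2 and 3, beside 10.5 between those and 3.88 to 16.1 in the other groups.

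Counts were filtered with filterByExpr, scaled by TMM and tested with edgeR 4.0.16 (glmQLFit and glmQLFTest, R 4.3.3), each comparison on its 6 libraries and the interaction on 12. Calls were made at an adjusted p (Benjamini-Hochberg) under 0.05. The scripts were tested on simulated data. CPM in the text are scaled to the placed total. The members, gene lists and rules for naming genes (all members, list genes past the threshold with the 4 largest changes, the 10 genes of most similar pattern and the 3 markers of highest count in each cell type list) were chosen with earlier results of these data known. Alternatives were DESeq2 1.42.0, RLE factors, library size only, T cell marker scaling, the total of all entries, other filters, other overlaps, a replicate block, all 12 libraries and each library left out. Zap70, Vav1 and Pik3cd were named after their values were seen, because their calls change with the scaling. A marker list of the design is not reported here.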

Additional observations from a re-analysis of the deposited data

Results flagged for a closer look

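For 18 genes named above, the difference between PERK-cKO and WT depended on the stimulation. They passed an adjusted p under 0.05 for the interaction term of edgeR's quasi-likelihood test over all 12 libraries. Of all 4402 genes tested, 1491 passed, 733 with a positive and 758 with a negative value. Genes were named partly for their calls in the comparisons above, so the count of 18 is no result about them. In log2 units, positive where the PERK-cKO to WT difference was larger under allogeneic stimulation, the values were 2.23 for Hdc, 1.49 for Csf2rb, 2.54 for Cyp11a1, 1.20 for Slc18a2, 1.45 for Srgn and 1.94 for Gab2. Smaller positive values were 0.49 for Def8, 0.36 for Inpp5d, 0.59 for Stat5b and 0.48 for Pecam1. Of the markers of other cells, Itgax was at 5.23 and Ctss at 1.70. Itgax had 81 to 95 counts in the PERK-cKO allogeneic and 0 to 6 in the WT allogeneic libraries. In the polyclonal libraries it had 3 to 6 counts in PERK-cKO and 2 to 11 in WT. It passed the filter through the PERK-cKO allogeneic group, so its call is a description and no support. Negative values were -2.58 for Il18r1, -0.80 for Lck, -0.60 for Thy1, -0.43 for Zap70, -0.41 for Fyn and -0.39 for Lat. Of these genes, Hdc is the only basophil and mast cell gene of the set of 5, and its interaction rested on WT polyclonal replicate 3.
Scaled to T cell markers, the interactions of Fyn (0.09), Lat (0.12) and Zap70 (0.08) turned sign and those of Thy1 (-0.09) and Il18r1 (-2.10) were no longer called. With library size only, those of Fyn and Inpp5d were no longer called, with RLE factors that of Fyn, and over the total of all deposited entries those of Fyn, Lat, Inpp5d and Zap70 (edgeR adjusted p = 0.0818, 0.0614, 0.0580 and 0.0662).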

How the results depend on the processing

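Fold changes of the 5 genes were recomputed only in settings that kept the gene, and for comparisons in which the main fit had tested it. Of these 383 values, 380 kept their direction and their side of an adjusted p of 0.05. The other 3 were interactions. Without WT polyclonal replicate 1, Fcer1a (-0.0827) and Ms4a2 (-0.61) turned sign, and over all libraries left out in turn they ran from -0.0827 to 1.30 and from -0.61 to 1.75. Without WT polyclonal replicate 3, Hdc fell to 1.39 and the count of members called for the interaction from 1 to 0 (range 0 to 1). After polyclonal stimulation, 2 members were called, and 2 to 4 with a library left out, 4 with no filter, 5 with all 12 libraries, 1 with an overlap of 100 bp and 0 with 10 counts in every library. In the fit of all 12 libraries, Prss34, Ms4a2 and Gata2 passed the filter through the allogeneic libraries, so their calls there do not support the polyclonal difference. The 10-count filter left 0 members called for WT stimulation, 2 for PERK-cKO stimulation and 0 for the interaction. Where 50% of an entry had to lie on the exons, 0 members remained in any comparison, because the members' entries lie largely elsewhere.

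In the order allogeneic, polyclonal, WT stimulation, PERK-cKO stimulation and interaction, 1352, 1250, 1937, 2139 and 1491 genes were called. Beyond a log2 fold change of 1 these were 570, 306, 727, 896 and 717, with the 50% rule 400, 339, 567, 612 and 396, and with each entry given to its largest overlap 2273, 2259, 3312, 3589 and 2521. With the replicate number as a block they were 1345, 1199, 1961, 2029 and 1442, and the counts of members called did not change. Same-numbered libraries did not deviate together from their group means (correlations -0.0986 to 0.0984). No pairing by number was seen, but with 3 libraries per group such correlations cannot exclude it.

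The summed level of the 5 genes, 3018, 141, 34.3 and 5.18 CPM in PERK-cKO allogeneic, WT allogeneic, PERK-cKO polyclonal and WT polyclonal libraries, became 1514, 71.3, 17.04 and 2.66 over the total of all entries and 1557, 73.3, 17.6 and 2.75 with the largest overlap. With an overlap of 100 bp it was 2814 and 28.5 CPM in the PERK-cKO allogeneic and polyclonal groups, and with T cell marker scaling 122 in the WT allogeneic group. TMM factors for this sum were tried after seeing the data and moved no group by more than its SD. T cell marker scaling shifted the median of all genes by 0.15, -0.34, -0.56, -0.08 and 0.51 in the same order of comparisons.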
